A study of Mus musculus with 12 samples.

Results

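The genes described here encode the sensors of foreign chemicals in the liver and the shared machinery that serves the enzymes they control: Nr1i3 (the receptor CAR), Nr1i2 (the receptor PXR), Ahr (the aryl hydrocarbon receptor, AhR), Arnt (its partner), Por (cytochrome P450 reductase) and Alas1 (5-aminolevulinate synthase 1). They were taken by symbol, 6 of the 15140 genes in the deposited table. They were selected on measured values, the difference of KO from WT livers in these same libraries, so their differences between groups are given as a description. Where a member passed a test run across all genes, nothing is read from it. The data are 12 liver libraries of polyA-selected RNA from male mice. The KO group (6 libraries) came from Phb1adipo-/- mice, in which prohibitin 1 is deleted in fat cells, and the WT group (6 libraries) from wild-type mice. All were fed a high-fat diet (60 kcal% fat) for 3 months from 7 to 8 weeks of age. The labels name no promoter that drove the deletion and no time of day of collection, and do not say whether each library came from its own animal, so every p-value measures the spread between these libraries.

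CAR and PXR are nuclear receptors of hepatocytes that, once activated by drugs, steroids or bile acids, pair with RXR and switch on genes of cytochrome P450 enzymes, conjugating enzymes and transporters. AhR is a helix-loop-helix receptor held in the cytoplasm by chaperones. With a ligand it enters the nucleus, pairs with ARNT and binds xenobiotic response elements. The P450 enzymes that these receptors induce need heme, whose synthesis in liver is set by ALAS1, and electrons, which POR passes to them from NADPH. DBP, HLF and TEF, the PAR bZip factors driven by the circadian clock, are known regulators of Nr1i3, Por and Alas1 in liver.

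The promoters of Nr1i3, Por and Alas1 are shown because these are the 3 members that the PAR bZip factors are known to regulate. They come from RefSeq (build GRCm38.p6) and run from 250 bases before to 50 bases after a start site, in the direction of the gene. Of the 6 members, 5 matched the RefSeq promoter table, and Ahr did not. Capitals mark the letters CACGTG (the E-box bound by clock factors) or GCGTG (the core of the xenobiotic response element), searched on both strands. No match of one overlapped a match of the other.
Nr1i3, chr1:171213720-171214019, + strand: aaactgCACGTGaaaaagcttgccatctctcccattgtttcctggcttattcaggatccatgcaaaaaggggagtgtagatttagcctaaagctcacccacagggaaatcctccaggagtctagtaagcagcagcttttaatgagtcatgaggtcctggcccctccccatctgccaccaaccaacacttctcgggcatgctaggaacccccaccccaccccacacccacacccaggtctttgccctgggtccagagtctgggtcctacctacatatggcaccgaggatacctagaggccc
Por, chr5:135688895-135689194, + strand: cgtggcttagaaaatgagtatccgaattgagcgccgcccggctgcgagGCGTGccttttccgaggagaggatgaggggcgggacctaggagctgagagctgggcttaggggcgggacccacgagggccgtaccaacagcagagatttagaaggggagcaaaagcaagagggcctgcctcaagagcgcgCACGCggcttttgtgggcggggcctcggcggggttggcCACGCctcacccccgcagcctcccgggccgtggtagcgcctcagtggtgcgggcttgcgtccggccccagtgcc
Alas1, chr9:106247905-106248204, - strand: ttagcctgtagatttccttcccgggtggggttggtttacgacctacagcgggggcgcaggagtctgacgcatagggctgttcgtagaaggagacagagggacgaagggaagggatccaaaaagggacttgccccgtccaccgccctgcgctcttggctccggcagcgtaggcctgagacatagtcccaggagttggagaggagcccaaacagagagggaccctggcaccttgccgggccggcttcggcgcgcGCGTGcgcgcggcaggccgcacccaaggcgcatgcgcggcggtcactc

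The Nr1i3 promoter held 1 E-box, starting at position -244 from the start site, and no xenobiotic response element core. Por held 3 cores, at positions -202, -62 and -24, and Alas1 held 1, at position 3, which also lies in the window of its other listed start. Arnt held 1 core at position -29, and Nr1i2 held neither motif. Of 32851 RefSeq promoter windows, 7.15% held CACGTG and 32.4% held GCGTG. The D-box letters of the PAR bZip factors (TTATGTAA or TTACGTAA, 1.06% of windows) and the nuclear receptor hexamer AGGTCA (16.3% of windows) were found in none of the windows of the 5 members. These are matches of letters only, and the windows are short.

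Total counts ran from 30348123 to 40828767 per library, lowest in WT library 6. Phb, which encodes prohibitin 1, ran from 88.6 to 100.4 CPM (read counts relative to library size, scaled by TMM) in KO and from 80.02 to 91.2 CPM in WT livers. The deletion was aimed at adipocytes, so this level does not check the genotype labels. Hepatocyte markers were all measured (10 of 10, summed level 71461 to 95909 CPM in KO and 74154 to 98230 CPM in WT), and 1 of them rose. Macrophage markers (10 of 10 measured) summed to 154 to 305 CPM in KO and 272 to 436 CPM in WT, ranges that overlapped. Of these markers 3 fell, where 1.49% of all genes were called lower. Of the adipocyte markers 1 of 6 was listed, Cfd, at 0.844 to 41.2 CPM in KO and 3.13 to 18.2 CPM in WT. The summed ranges of stellate (10 of 10 measured), sinusoidal endothelial (10 of 10), B cell (8 of 10), T and NK cell (6 of 10, Cd3d and Cd3e in no row) and cholangiocyte (6 of 8) markers overlapped between the groups, with 1 T and NK cell marker lower in KO. The part of these other cells in the values below was not tested. In bulk liver, fewer cells of a type and less RNA per cell cannot be told apart.

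Nr1i3, the CAR gene, had the most negative fold change of the 6 members. It lies on chromosome 1 (171213970 to 171220701, + strand, GRCm38, ENSMUSG00000005677). In KO its level was lowest at 20.9 CPM in library 1, with a median of 28.5 and a highest value of 43.3 CPM in library 3. In WT it was lowest at 39.1 CPM in library 6, with a median of 72.9 and a highest value of 99.5 CPM in library 4. The groups overlapped because WT library 6 lay just below KO library 3. It lay above the other 5 KO libraries. Of the KO libraries 5 lay below every WT library, and at least 5 did so in 4% of all 15000 tested genes. The mean fell to 30.5 ± 9.05 CPM in KO against 74.0 ± 22.7 CPM in WT (SD over 6 libraries a group), which is 2.43-fold on the fitted scale (log2 fold change -1.28 ± 0.24, SE from edgeR).

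Among the 6 members, Nr1i3 was the 1 called by edgeR's quasi-likelihood test across all genes, where 2.64% of all genes were called (1.49% lower and 1.15% higher in KO). The same contrast was known when the members were chosen. Nothing is therefore read from this count, from the call of any member, or from the deposited adjusted p-values given below. In 0 of the 6 members were the groups fully apart, against 2.53% of all genes. The count of called members was 0 without KO library 6, WT library 2 or WT library 4, and 2 without WT library 6, when Por was called as well. The authors' deposited table, in which 5.51% of genes had an adjusted p under 0.05, held 2 of the members below that value, Nr1i3 and Por. Its log2 fold changes were -1.27 for Nr1i3 and -0.80 for Por.

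**Figure D1:**
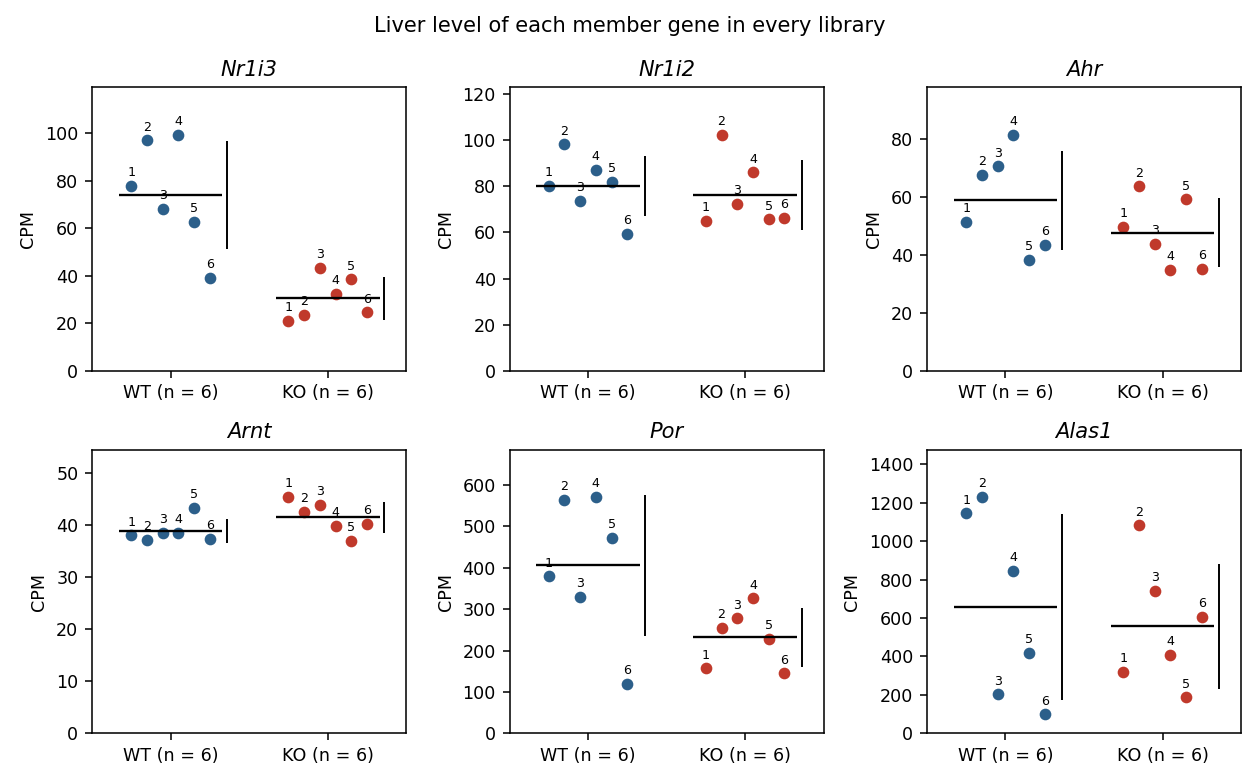
Level of each member gene in CPM (vertical axes from 0) in the 6 WT (blue) and 6 KO (red) libraries, numbered by replicate, with horizontal lines for group means and vertical lines for ± 1 SD. Nr1i3 overlaps between groups only through WT library 6 (39.1 CPM), Arnt is nearly level, and Alas1 spreads from 98.6 to 1230 CPM.

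The counts of Nr1i3 cannot be read apart from those of Tomm40l, which encodes a relative of TOMM40, the channel of the mitochondrial outer membrane. The genes lie on opposite strands and overlap from 171216011 to 171220701 on chromosome 1, over 4691 bases. Over all annotated transcripts they share 3304 exonic bases, 74.9% of those of Nr1i3 and 64.3% of those of Tomm40l, which leaves 1110 and 1831 bases of their own. Whether the counting used strand, and what it did with reads that fit both genes, is not given in the sources used here.

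Tomm40l followed Nr1i3 closely. It ran from 5.61 to 11.3 CPM in KO (median 7.37) and from 10.8 to 25.6 CPM in WT (median 17.7), with a log2 fold change of -1.24 ± 0.22 (SE). Again 5 KO libraries lay below every WT library, and WT library 6 was the lowest of its group. Nr1i3 had 3.999 ± 0.962 counts for each count of Tomm40l in KO, against 4.02 ± 0.421 in WT (SD over 6 libraries a group), so the ratio hardly differed while both levels did. It was lowest in KO library 2 (975 against 344 counts, 2.83) and highest in KO library 4 (1199 against 215 counts, 5.58).

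**Figure D2:**
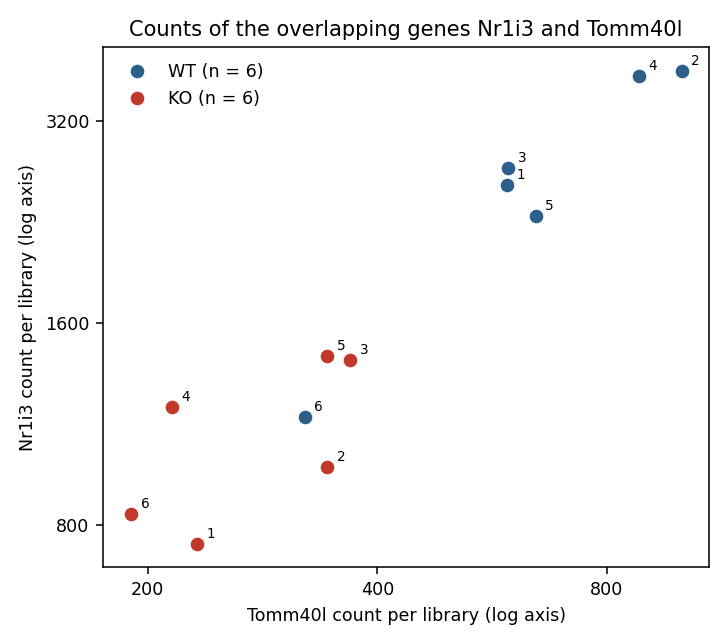
Read counts of Nr1i3 (vertical, log axis) against those of Tomm40l (horizontal, log axis) in each library, WT in blue and KO in red, numbered by replicate. The libraries run along 1 diagonal, with 5 WT libraries at the upper end and WT library 6 (1158 and 321 counts) among the KO libraries.

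Nr1i2, the PXR gene (chromosome 16, 38248323 to 38294824, - strand, ENSMUSG00000022809), stood at much the same level in both groups. It ran from 64.9 to 102.5 CPM in KO (median 69.3) and from 59.5 to 98.2 CPM in WT (median 81.1). The ranges overlapped nearly throughout, with KO library 2 above every WT library and WT library 6 below every KO library. The log2 fold change was -0.07 ± 0.13 (SE), and it stood at -0.17 without KO library 2 and at -0.0057 without WT library 2.

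Ahr, the gene of the aryl hydrocarbon receptor (chromosome 12, 35497974 to 35535038, - strand, ENSMUSG00000019256), ran from 34.7 to 63.5 CPM in KO (median 46.7) and from 38.1 to 81.5 CPM in WT (median 59.5). WT libraries 2, 3 and 4 lay above every KO library, whereas WT libraries 5 and 6 were among the low ones. The log2 fold change was -0.30 ± 0.21 (SE). Arnt, which encodes the partner of AhR and of the hypoxia factors (chromosome 3, 95434388 to 95497240, + strand, ENSMUSG00000015522), was the most even member. It ran from 37.1 to 45.4 CPM in KO and from 37.3 to 43.3 CPM in WT, with a log2 fold change of 0.10 ± 0.06 (SE). The values of both genes of the AhR dimer overlapped between the groups. The exons of Ahr (2.06%) and Alas1 (7.53%) overlap little with unlisted RNAs on the opposite strand, and those of Nr1i2, Arnt and Por with no annotated gene.

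Por, whose product feeds electrons to the microsomal P450 enzymes (chromosome 5, 135670033 to 135735326, + strand, ENSMUSG00000005514), was lower in most KO livers. It ran from 144.7 CPM in library 6 to 326 CPM in library 4 in KO (median 242). In WT it ran from 119.7 CPM in library 6 to 571 CPM in library 4 (median 425). The other 5 WT libraries, from 329 CPM upward, lay above every KO library, and WT library 6 lay below every one. The log2 fold change was -0.81 ± 0.33 (SE) and became -0.999 without WT library 6.

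Alas1, the gene of the rate-limiting enzyme of heme synthesis in liver (chromosome 9, 106233455 to 106248654, - strand, ENSMUSG00000032786), differed more among libraries of a group than between groups. It ran from 187 to 1083 CPM in KO (median 506), a 5.80-fold range, and from 98.6 to 1230 CPM in WT (median 632), a 12.5-fold range. The lowest were WT library 6, KO library 5 and WT library 3, and the highest WT libraries 2 and 1 and KO library 2. The log2 fold change of -0.24 ± 0.60 (SE) turned to 0.04 without WT library 2 and to 0.05 with limma-voom.

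**Figure D3:**
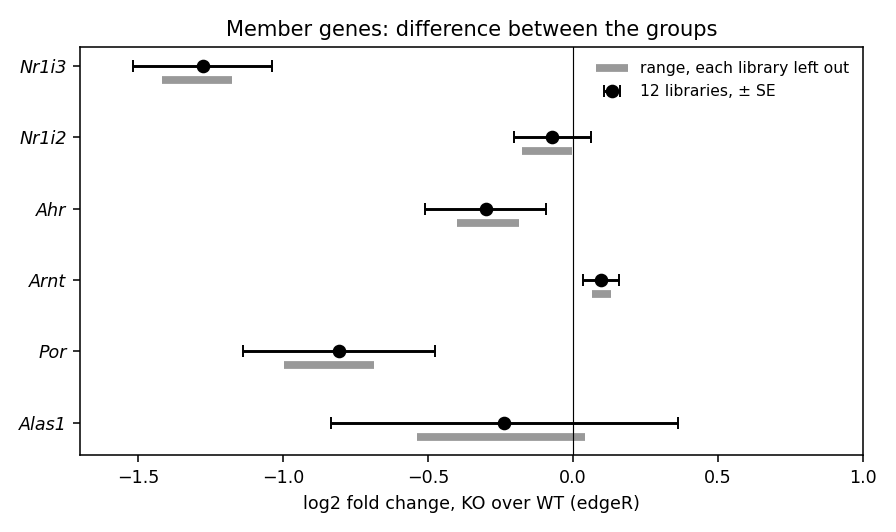
Log2 fold change of KO over WT for each member (points, edgeR, with bars of ± SE over 12 libraries) and its range when each library is left out in turn (grey bars). The grey bars of Nr1i3 (-1.42 to -1.18) and Por (-0.999 to -0.69) stay below 0, and that of Alas1 (-0.54 to 0.04) reaches both sides.

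The spread within groups, which does not depend on the difference between them, separated the members as well. It is given by the biological coefficient of variation from edgeR (BCV, the relative spread between libraries beyond counting error). Alas1 had a BCV of 0.690, and only 1.29% of all tested genes had a higher one. Por followed at 0.393 (10.2% of genes higher), then Nr1i3 at 0.287 (23.6%), Ahr at 0.255 (29.4%) and Nr1i2 at 0.175 (50.5%). Arnt stood at 0.0988, and 95.6% of genes were more variable. In the WT group, library 6 was the lowest for Nr1i3, Nr1i2, Por and Alas1, but not for Ahr (lowest in library 5) or Arnt (lowest in library 2).

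The order of the levels was compared per kilobase, first over all annotated exonic bases of each gene. In WT the mean levels were 106 ± 78.6 CPM per kb for Alas1, 101 ± 42.3 for Por, 31.4 ± 5.09 for Nr1i2, 16.8 ± 5.14 for Nr1i3, 9.53 ± 2.76 for Ahr and 4.85 ± 0.281 for Arnt (SD, n = 6). Alas1 and Por did not differ beyond their spread, since Alas1 was the higher in 2 of 6 WT libraries. Nr1i2 exceeded Nr1i3 in 6 of 6, Nr1i3 exceeded Ahr in 6 of 6 and Ahr exceeded Arnt in 6 of 6. In KO the order of Ahr (7.73 ± 1.95 CPM per kb) and Nr1i3 (6.92 ± 2.05) was the other way around, with Ahr higher in 4 of 6, which is within their spread.

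The place of Nr1i3 in this order rests on the length used, and on the reads that fit both it and Tomm40l. Of its exonic bases 74.9% are shared with Tomm40l. How such reads were counted is not known, so no length is settled for Nr1i3. Over the median length of its coding transcripts, an alternative chosen after seeing the data, WT Nr1i3 stood at 53.4 ± 16.4 CPM per kb, above Nr1i2 (31.4 ± 5.09) in 6 of 6 libraries. In KO it stood at 22.02 ± 6.53 CPM per kb, below Nr1i2 (29.9 ± 5.91) in 4 of 6. With this length Arnt also passed above Ahr, at 14.7 ± 0.849 against 10.6 ± 3.07 CPM per kb in WT (SD, n = 6). The WT mean of Por (442 ± 185) likewise passed above that of Alas1 (357 ± 264), with Por higher in 4 of 6 libraries, within their spread. For Por this length is 918 bases, against 4021 exonic bases.

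Deviations of the libraries from their own group mean ask whether members varied together, apart from genotype. A total of 33 pairs were compared over 12 libraries, 15 between members and 18 of a member with Dbp, Hlf or Tef, by exact two-sided permutation within groups. None had a Benjamini-Hochberg adjusted p under 0.05 by Pearson's r or by Spearman's rho, while 7 and 3 pairs had an unadjusted p under 0.05. Nr1i3 and Por gave r = 0.81 (exact permutation p = 0.00474, adjusted 0.0522) and rho = 0.66 (exact permutation p = 0.0371, adjusted 0.408). Leaving out KO library 1 and WT library 6, the farthest for Nr1i3, r was 0.55. It was 0.63 within KO and 0.92 within WT.

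The pairs of Nr1i2 with Por and Alas1 did not pass after adjustment either. For Nr1i2 and Por r was 0.79 (exact permutation p = 0.00217, adjusted 0.0522) and rho was 0.80 (exact permutation p = 0.00624, adjusted 0.103), and without KO library 2 and WT library 6 r was 0.83. For Nr1i2 and Alas1 r was 0.76 (exact permutation p = 0.00380, adjusted 0.0522) and rho 0.80 (exact permutation p = 0.00624, adjusted 0.103), and r without the same libraries was 0.52. Por and Alas1 gave r = 0.67 (exact permutation p = 0.0321, adjusted 0.177) and rho = 0.49 (exact permutation p = 0.142, adjusted 0.799), and r was 0.49 without KO library 6 and WT library 6. Nr1i3 and Nr1i2, the receptors closest in kind, gave r = 0.41 (exact permutation p = 0.201, adjusted 0.511) and rho = 0.46 (exact permutation p = 0.170, adjusted 0.799), which became -0.10 for r without KO library 1 and WT library 6. Here r was -0.13 within KO and 0.92 within WT, so this relation rested on the libraries left out.

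**Figure D4:**
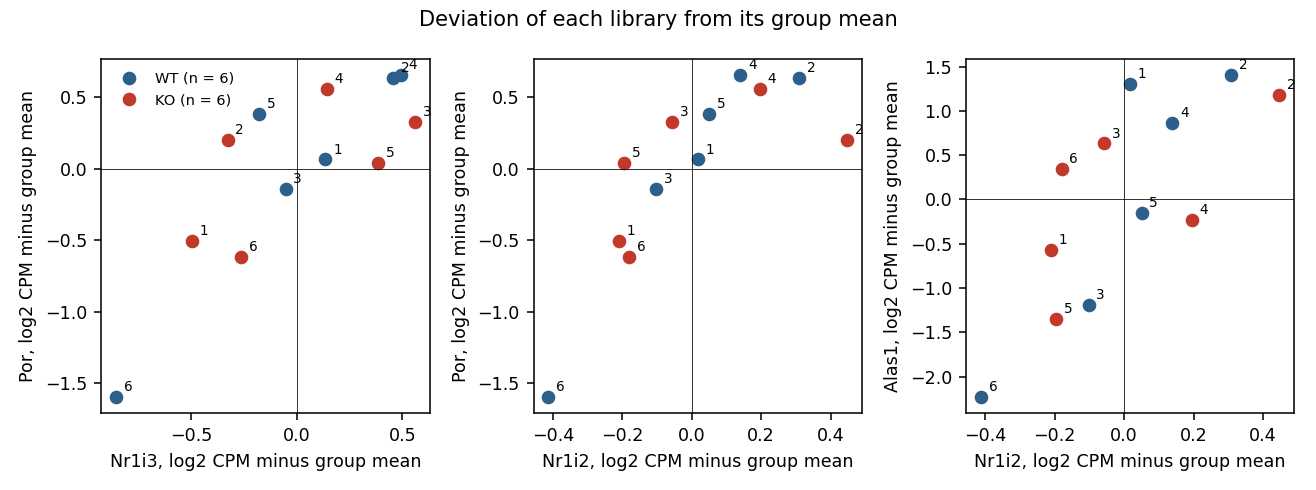
Deviation of each library from its group mean in log2 CPM for Nr1i3 and Por, Nr1i2 and Por, and Nr1i2 and Alas1 (WT in blue, KO in red, numbered by replicate). WT library 6 lies at the lower left of all 3 panels, and r over the 12 libraries is 0.81, 0.79 and 0.76.

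The genes whose deviations were most like those of Nr1i3, among 12880 genes averaging 1 CPM or more, were Cd1d1 (r = 0.92), Dcaf6 (0.92), Cmbl (0.92), Sod1 (0.91) and Slc25a29 (0.91), over 12 libraries. Tomm40l came 41st of them with r = 0.83, and Por 59th. Most like Por were Susd1 (0.92), Immp2l (0.92), Ces1d (0.92), Acot3 (0.92) and Usp2 (0.92). Most like Alas1 were Nqo1 (0.94), Aldh3a2 (0.93), Dglucy (0.93), Rhbdd2 (0.92) and Acadm (0.92). These are descriptions, and no test was made of them.

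The PAR bZip factors stood lower in KO livers, as Nr1i3 and Por did. Hlf fell to 63.4 ± 17.3 CPM in KO against 110 ± 17.3 CPM in WT (SD over 6 libraries a group), a log2 fold change of -0.80 ± 0.16 (edgeR, Benjamini-Hochberg adjusted p = 0.0266). Tef fell to 115 ± 28.6 against 219 ± 53.7 CPM, a log2 fold change of -0.93 ± 0.20 (adjusted p = 0.0326). Dbp stood at 32.98 ± 22.6 against 112 ± 33.9 CPM (-1.77 ± 0.45 SE), with 5 of 6 KO libraries below every WT library, and did not pass (adjusted p = 0.0609). Cry1, a clock repressor gene, rose by 0.96 ± 0.21 (adjusted p = 0.0360), and its relative Cry2 stood at -0.62 ± 0.15 (adjusted p = 0.0514). Dbp shares 18.01% of its exonic bases with Sphk2 on the opposite strand, so its reads are uncertain. Of 22 clock and PAR bZip genes tested, 1 rose and 2 fell (13.6%, against 2.64% of all genes). The list was chosen with earlier results of these data known, so nothing is read from that share. The median log2 fold change was -0.50, against 0.0031 over all genes, but the list went both ways, with 15 negative and 7 positive values. Arntl (1.39 ± 0.40 SE) and Npas2 (1.55 ± 0.50 SE) were positive, and Per3 (-1.73 ± 0.45 SE) and Ciart (-2.18 ± 0.55 SE) negative. None of these 4 passed (edgeR, adjusted p = 0.0808, 0.107, 0.0646 and 0.0586). Leaving out KO library 6 or 1 of WT libraries 2, 4 and 5 gave a count of 0 called genes. It was 1 without KO library 2 or WT library 3, 5 without KO library 3 and 11 without WT library 6.

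Within groups, Nr1i3 gave r = 0.70 with Tef (exact permutation p = 0.0224, adjusted 0.153; rho = 0.40, exact permutation p = 0.236, adjusted 0.821), 0.58 with Hlf (exact permutation p = 0.0483, adjusted 0.228; rho = 0.60, exact permutation p = 0.0619, adjusted 0.511) and 0.55 with Dbp (exact permutation p = 0.0640, adjusted 0.264; rho = 0.31, exact permutation p = 0.362, adjusted 0.898). Without KO library 1 and WT library 6 these were 0.62, 0.60 and 0.62. Por gave r = 0.68 with Tef (exact permutation p = 0.0232, adjusted 0.153; rho = 0.46, exact permutation p = 0.170, adjusted 0.799), which was 0.17 without KO library 6 and WT library 6 and so rested on them. Alas1 gave 0.07 with Tef (exact permutation p = 0.844, adjusted 0.870; rho = -0.09, exact permutation p = 0.830, adjusted 0.925). With Dbp and Hlf, r was 0.44 and 0.28 for Por (exact permutation, adjusted p = 0.299 and 0.685). Without KO library 6 and WT library 6 these were 0.15 and -0.05. For Alas1, r was -0.09 with Dbp and -0.30 with Hlf (exact permutation, adjusted p = 0.830 and 0.641). Between Alas1 and Hlf it was -0.89 within KO and 0.21 within WT. The part of the clock genes in the level of Nr1i3 was not tested.

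Among 31 tested genes listed as CAR targets, 2 passed the test, both lower in KO. Of the 31, 22 had a negative fold change whether or not they passed, where 49.4% of all genes did, and this tally was not tested. Negative values also made up 12 of 19 PXR targets, 10 of 14 AhR targets and 21 of 30 partners and regulators of the receptors. A majority of negative values was therefore not particular to CAR targets. It was not seen in heme genes (6 of 22 negative) or electron donors (4 of 12). Cyp2a5, a P450 gene that also handles nicotine and coumarin, fell to 110 ± 32.2 CPM in KO against 598 ± 408 CPM in WT, a log2 fold change of -2.44 ± 0.50 (edgeR, adjusted p = 0.0307). Ugt1a1, which encodes the enzyme that conjugates bilirubin, fell to 50.6 ± 6.48 against 74.9 ± 15.8 CPM (-0.56 ± 0.14, adjusted p = 0.0437). Cyp2b9 (-3.85 ± 1.18) and the glutathione transferase gene Gsta2 (-0.98 ± 0.29) did not pass (edgeR, adjusted p = 0.101 and 0.0875). Cyp2b9 ran from 0.727 to 198 CPM in WT and from 0.334 to 13.8 CPM in KO. Cyp2b10, the classical CAR target, was barely present in either group, at 0.575 ± 0.608 CPM in KO and 0.4999 ± 0.388 CPM in WT (log2 fold change 0.21 ± 0.74; edgeR, adjusted p = 0.901).

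In all, 2 of 31 CAR targets fell (6.45%, against 1.49% of all genes called lower) and 0 rose, with a median log2 fold change of -0.21. This list was also chosen with earlier results of these data known, so nothing is read from its share. Leaving out any of KO libraries 1, 2 and 6 or WT libraries 2, 4 and 5 gave 0 called, leaving out KO library 3, KO library 5 or WT library 1 gave 1, and leaving out WT library 6 gave 4. Cyp2a5 has a close copy, Cyp2a4, and Ugt1a1 shares 58.9% of its exonic bases with its Ugt1a neighbours, so their reads are uncertain. The lists overlap: 14 genes stood in more than 1 of the 7, all of them receptor targets except Hmox1, which was counted with the heme genes and the electron donors.

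Among 19 tested targets of PXR, 1 fell, Ugt1a1, which was also counted for CAR, and 0 rose (5.26%, against 1.49% of all genes called lower). The median log2 fold change was -0.21. A single gene makes up this share, and the list was chosen with earlier results of these data known, so nothing is read from the share. Cyp3a11, the leading PXR target, stood at 376 ± 317 CPM in KO and 339 ± 249 CPM in WT (log2 fold change 0.15 ± 0.57 SE; edgeR, adjusted p = 0.908). Its relatives Cyp3a13 (-0.68 ± 0.20) and Cyp3a59 (-0.97 ± 0.35) did not pass (edgeR, adjusted p = 0.0888 and 0.139), and neither did the glutathione transferase gene Gsta4 (0.53 ± 0.17, adjusted p = 0.0984). None were called when any of KO libraries 1, 2, 3, 5 and 6 or WT libraries 1, 2, 4 and 5 was left out, and 2 were called without KO library 4 or WT library 6.

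Of 14 tested targets of AhR, 1 fell and 0 rose (7.14%, against 1.49% of all genes called lower, so a single gene makes up the share; median log2 fold change -0.05). It was Ugt1a6a, a phenol-conjugating enzyme gene, which fell to 12.4 ± 3.66 CPM in KO against 20.5 ± 2.16 CPM in WT (-0.73 ± 0.16 SE; edgeR, adjusted p = 0.0350). Its reads are uncertain, since it shares exons with the other Ugt1a genes, among them Ugt1a1, which was counted for CAR and PXR. Ugt1a6b, another AhR target that shares them, stood at -0.14 ± 0.10 (SE) and did not pass (edgeR, adjusted p = 0.448). The AhR list was also chosen with earlier results of these data known, so nothing is read from its share. Cyp1a2, the main hepatic AhR target, stood at 431 ± 152 CPM in KO and 399 ± 116 CPM in WT (0.11 ± 0.25 SE; adjusted p = 0.837), and Cyp1a1, the most inducible one, at 0.905 ± 0.189 and 0.761 ± 0.131 CPM (0.25 ± 0.20 SE; adjusted p = 0.510). Slc46a3, a lysosomal transporter gene (-0.43 ± 0.14), Xdh (-0.25 ± 0.15) and Fmo2 (-0.69 ± 0.47) did not pass (edgeR, adjusted p = 0.112, 0.333 and 0.421). None were called when any of KO libraries 2, 4 and 6 or WT libraries 2, 3, 4 and 5 was left out.

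**Figure D5:**
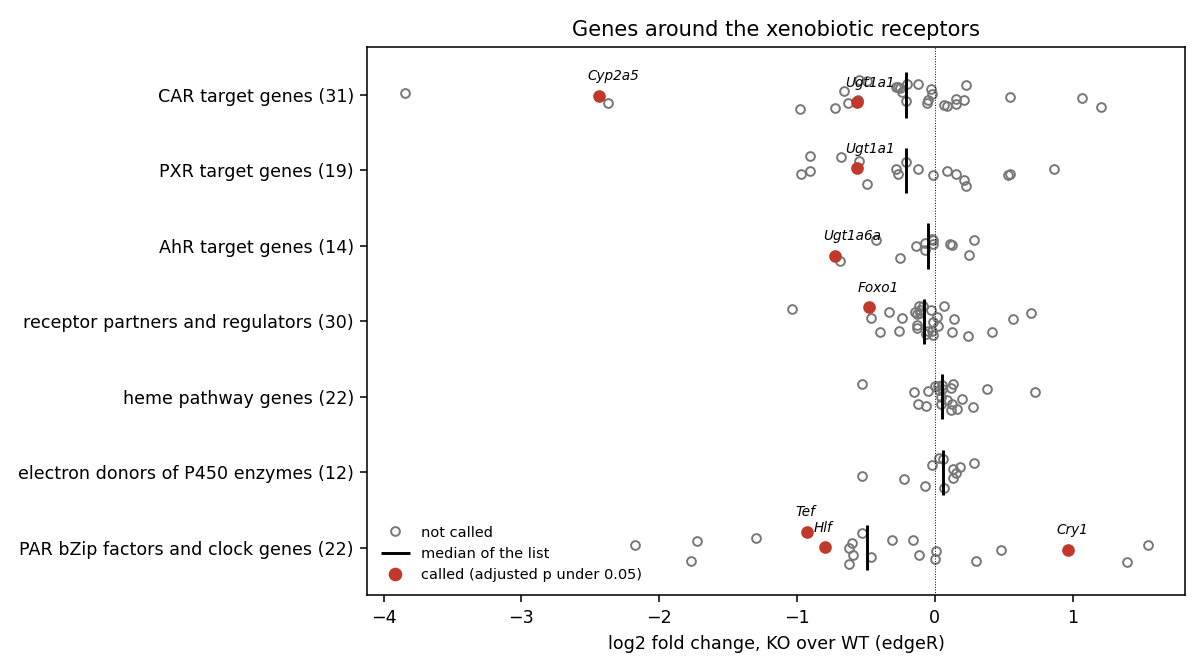
Log2 fold change of KO over WT (horizontal axis, edgeR) for the tested genes of 7 lists around the receptors (number of genes in brackets), with called genes filled and named and a line at each list's median. Called genes are few in each list, and the clock list has the lowest median (-0.50).

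Of 30 tested partners and regulators of the receptors, 1 fell and 0 rose, with a median log2 fold change of -0.08. This is 3.33% of the list, against 2.64% of all genes called in either direction and 1.49% called lower, so nothing about the list is read from a count of 1. Foxo1, an insulin-regulated factor known as a coactivator of CAR and PXR, fell to 36.1 ± 4.99 CPM in KO against 50.3 ± 7.55 CPM in WT (-0.48 ± 0.11 SE; edgeR, adjusted p = 0.0394). The bile acid receptor gene Nr1h4 (-0.40 ± 0.10), the corepressor gene Ncor1 (-0.34 ± 0.10) and the pioneer factor gene Foxa2 (0.57 ± 0.17) did not pass (edgeR, adjusted p = 0.0558, 0.0780 and 0.0839). With KO library 4, KO library 6 or any of WT libraries 1 to 5 left out 0 were called, and without KO library 2 there were 2.

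Around Alas1, 0 of 22 tested genes of heme synthesis, transport and breakdown passed edgeR's test (4 had an unadjusted p under 0.05, and 1 passed with DESeq2), and the median log2 fold change was 0.05. Over all genes 2.64% were called, so nothing about so short a list is read from a count of 0. Clpx, which encodes a subunit of a mitochondrial protease that degrades ALAS1, stood at 216 ± 47.1 CPM in KO and 131 ± 35.3 CPM in WT (0.72 ± 0.18 SE; adjusted p = 0.0556), and was above every WT library in 4 of 6 KO libraries. Hmox1, the heme oxygenase gene (-0.53 ± 0.23), Urod (0.13 ± 0.06) and the mitochondrial glycine carrier gene Slc25a38 (0.16 ± 0.07) did not pass either (edgeR, adjusted p = 0.209, 0.185 and 0.2005). The count was 1 without KO library 3, WT library 1 or WT library 6.

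Around Por, 0 of 12 tested genes for other electron donors and users passed edgeR's test (1 had an unadjusted p under 0.05, Hmox1, and 0 passed with DESeq2), with a median log2 fold change of 0.06. Here too, with 2.64% of all genes called, nothing about the list is read from a count of 0. Cyb5a, the cytochrome b5 gene whose product can hand electrons to P450 enzymes beside POR, stood at 878 ± 145 CPM in KO and 1025 ± 210 CPM in WT (-0.22 ± 0.15 SE; edgeR, adjusted p = 0.413). Cyb5b, its mitochondrial counterpart, was at 0.13 ± 0.08 and the heme-binding protein gene Pgrmc2 at 0.18 ± 0.10 (adjusted p = 0.341 and 0.290).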

How the data were processed

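Read counts per gene were deposited for 12 liver libraries, grouped and numbered by their titles. The values are whole-number counts that the authors did not normalize, per the file headers and the values. Per the submitters' processing notes, the tools include HISAT2 and featureCounts, and DESeq2, SAMtools, Trimmomatic and FastQC are listed as well, without versions, with GRCm38 as the build. Whether counting used strand, and how shared reads were treated, is stated in none of the sources used here. The same deposited table held the authors' log2 fold change and adjusted p-value of KO against WT, per the file headers.

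Of 15344 rows, 204 repeated a gene with identical counts and were left out. Positions and lengths came from GENCODE M21 (GRCm38). All genes were fitted with edgeR 4.0.16 (R 4.3.3; TMM, filterByExpr, robust quasi-likelihood F test, two-sided, Benjamini-Hochberg threshold 0.05), which tested 15000 genes and removed 140. "Called", "rose" and "fell" mean passing this test. SE is the unshrunken log2 fold change divided by the root of F. The scripts were tested on simulated data, in which 34.3% of planted 1.5-fold changes and 83.6% of planted 2-fold changes were called. A gene that did not pass may therefore still differ between the groups. Correlations used log2 CPM (prior count 2) centred on group means.

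The members and all lists were chosen with earlier results of these data known. The lists held 33 CAR, 23 PXR and 18 AhR targets, 32 partners, 22 heme, 12 electron donor and 22 clock genes; those in no row of the table were not tested. Named genes are the members, Tomm40l, called genes of a list or its 4 smallest p, and leading targets. Alternatives were DESeq2 1.42.0, limma-voom (limma 3.58.1), RLE or total-count scaling, other filters, a replicate block and each library left out. No 2 libraries of a group agreed within counting noise (30 pairs; chi-square over degrees of freedom from 38.1 to 242).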

Additional observations from a re-analysis of the deposited data

Results flagged for a closer look

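Of 76 groups of 6 libraries examined (the named genes in each genotype, as log2 CPM), 3 held a library standing far from the other 5. By chance about 3.8 would. Each value below is the distance to the next library as a share of the whole range in that genotype. Por was low in WT library 6 (0.647; 119.7 CPM against 329 to 571 CPM). Arnt was high in WT library 5 (0.772; 43.3 CPM against 37.3 to 38.6 CPM). Pgrmc2 was high in WT library 2 (0.626; 91.2 CPM against 73.8 to 79.9 CPM).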

How the results depend on the processing

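The member log2 fold changes moved by less than 1 SD between libraries under every alternative run, although the sign for Alas1 turned as given above. With each library left out they ran from -1.42 to -1.18 for Nr1i3, -0.17 to -0.0057 for Nr1i2, -0.40 to -0.19 for Ahr, 0.066 to 0.13 for Arnt, -0.999 to -0.69 for Por and -0.54 to 0.04 for Alas1. The count of 396 genes called became 1236 with DESeq2 and 257 with total counts only, and ran from 25 (without WT library 4) to 700 (without WT library 6). Leaving out libraries gave 0 to 2 members, 0 to 4 CAR targets, 0 to 2 PXR targets, 0 to 1 AhR targets, 0 to 2 partners, 0 to 1 heme genes, 0 electron donors and 0 to 11 clock genes. DESeq2 called 5 CAR targets, 4 PXR targets, 7 partners, 1 heme gene and 12 clock genes. Limma-voom called 1 CAR and 0 PXR targets, and total counts only gave 1 CAR target, 0 PXR targets and 0 partners. At least 1 CPM in 6 libraries gave 2 partners and 6 clock genes.

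Leave-one-out reversed 3 values that had not passed: Cyp1a2 stood at -0.054 without KO library 3 (to 0.26 without WT library 3), Cyp2b10 at -0.57 without KO library 2 and -0.04 without WT library 6 (to 0.45 without WT library 1), and Cyp3a11 at -0.40 and -0.04 without the same libraries (to 0.63 without WT library 2). Of the 33 correlations, 0 passed, against 3 with total counts only and 0 to 2 with a library left out. The cause of these differences was not tested.

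No label says that an equal replicate number marks a shared litter, batch or day, and the data leave a pairing unsettled: deviations of same-numbered KO and WT libraries correlated from -0.20 to 0.42 over the 2000 most variable genes, 3 of the 6 pairs were over 0.1, and 3 of 6 KO libraries correlated best with their own number. With the replicate number as a block, 374 genes, 1 member, 1 CAR target, 1 PXR target, 2 AhR targets, 1 partner, 1 heme gene, 0 electron donors and 9 clock genes were called, and Nr1i3 stood at -1.26, Nr1i2 at -0.08, Ahr at -0.29, Arnt at 0.09, Por at -0.71 and Alas1 at -0.04.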
